A study of Mus musculus with 12 samples.

Results

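The Krüppel-like factor (KLF) genes encode transcription factors that bind GC-rich and CACCC-containing DNA through zinc fingers at the C-terminus, and differ in the N-terminal regions that recruit coactivators or corepressors. In macrophages KLF2 and KLF4 are known as restraints on inflammatory gene expression, KLF4 also as a factor of monocyte differentiation, and KLF6 as a factor that favours NF-kB-driven inflammatory genes. Several KLF genes belong to the early response genes, whose short-lived mRNAs follow growth factors, shear stress, hormones or bacterial products.

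The 9 genes described here, Klf2, Klf3, Klf4, Klf6, Klf7, Klf9, Klf10, Klf11 and Klf13, were chosen by gene symbol from the 54532 genes of the count table. All 9 were among the 13800 genes that passed the filter on low counts. The family has 8 other symbols in the table, of which Klf5, Klf8 and Klf16 passed the filter.

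The study measured poly-A RNA of macrophages grown with 50 ng/mL M-CSF from bone marrow of male mice aged 8 weeks, in 4 groups of 3 libraries. The genotypes are named Itga9-Lyz2-cHet and Itga9-Lyz2-cKO in the labels, here cHet and cKO. Itga9 encodes the integrin alpha 9 chain, and Lyz2 is a lysozyme gene active in macrophages and neutrophils whose promoter is widely used to drive Cre in myeloid cells. Each genotype was left untreated (control) or was exposed for 2 h to the agent labelled Pg (MOI 1:20). Both genotypes carry the conditional design in their names, and no wild-type group was analysed here. No label states that replicate libraries are separate mice or cultures, and the p-values then reflect only library-to-library spread, possibly technical. In bulk RNA, fewer cells of a type and less RNA per cell cannot be told apart.

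Total counts were 14527674 to 16793803 per library. Levels are in CPM, counts brought to a common library size with TMM factors, and RPKM is CPM per kilobase of the deposited gene length. Itga9 lay at 17.9 to 34.0 CPM in the 6 cHet libraries and at 5.98 to 13.6 CPM in the 6 cKO libraries. Of the 7 macrophage markers, all were detected, with Csf1r at 3960 CPM or more and Adgre1 at 1221 CPM or more in every library. Their summed level was 24819 to 30089 CPM in cHet and 15872 to 19758 CPM in cKO libraries, most of it from Lyz2. Over all libraries Lyz2 spanned 8746 to 22004 CPM, Csf1r 3960 to 5408, Adgre1 1221 to 1644 and Cd68 788 to 1427 CPM. Itgam, Mertk and Fcgr1 stayed at 213 CPM or less. The sum thus mostly follows Lyz2, the gene named in both genotypes, and cannot be read as the amount of macrophages.

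The libraries of a group deviated from their group mean in a shared pattern. Over 8392 well expressed genes, the first component of the deviations from the group means held 48.0% of their variance, against 12.8% for the second. Its sign divided the libraries into 6 and 6. Set A held cHet control 1, cHet Pg 2 and 3, cKO control 1 and cKO Pg 1 and 2, and set B held the other 6. The deviations correlated positively in all 26 pairs of libraries of the same set in different groups (Pearson r across genes 0.15 to 0.67). They correlated negatively in all 28 pairs of different sets in different groups (-0.55 to -0.13). The sets were defined from these same deviations, so such signs follow largely by construction and are no separate support for the division. Centring on the group mean also forces each group to fall into both sets. Itga9 itself differed between the sets, at 32.3 to 34.0 CPM in set A and 17.9 to 19.4 CPM in set B of cHet. In cKO it lay at 11.5 to 13.6 CPM in set A and 5.98 to 7.84 CPM in set B. The labels name no batch, and what divides the sets was not tested. The sets are balanced between genotypes, but each genotype has 1 control and 2 Pg libraries in set A and 2 controls and 1 Pg library in set B. Results below are therefore given for all 12 libraries, the fit planned from the labels, and also within each set or with a term for the 2 sets, both added after the data were seen. The set term was estimated from the same libraries, so its p-values are likely too small.

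The start regions of the genes that changed most, and of the pair that differed by genotype, are shown to let their sequence be read beside the levels. RefSeq windows (GRCm38.p6, 250 bases before to 50 after the annotated start) matched 8 of the 9 genes, without Klf10. Both strands were searched for TGACG, the core of the cyclic AMP response element, for that whole element (which contains the core), for CACCC, the KLF and SP box, for TGANTCA, an AP-1 site, and for the MEF2 box, the CArG box and the NF-kB site. Capitals mark the MEF2 box, TGACG on either strand and TGANTCA, and only bases ahead of the deposited gene span are printed, 5′ to 3′ in the sense of the gene.
The Klf2 bases lie at chr8:72318812-72319032 (plus strand), those of Klf4 at chr4:55532476-55532725 (minus), Klf6 at chr13:5861239-5861481 (plus), Klf9 at chr19:23140976-23141225 (plus) and Klf11 at chr12:24651121-24651273 (plus).
Klf2: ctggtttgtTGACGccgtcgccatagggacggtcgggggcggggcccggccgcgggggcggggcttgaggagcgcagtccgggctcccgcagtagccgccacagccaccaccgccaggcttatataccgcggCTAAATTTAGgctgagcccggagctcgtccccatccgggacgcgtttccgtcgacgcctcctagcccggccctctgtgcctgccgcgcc
Klf4: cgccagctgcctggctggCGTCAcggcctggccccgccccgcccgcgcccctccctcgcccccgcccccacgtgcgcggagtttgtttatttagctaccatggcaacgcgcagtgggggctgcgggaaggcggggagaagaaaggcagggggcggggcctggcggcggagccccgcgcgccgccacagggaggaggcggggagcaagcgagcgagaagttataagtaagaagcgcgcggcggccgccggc
Klf6: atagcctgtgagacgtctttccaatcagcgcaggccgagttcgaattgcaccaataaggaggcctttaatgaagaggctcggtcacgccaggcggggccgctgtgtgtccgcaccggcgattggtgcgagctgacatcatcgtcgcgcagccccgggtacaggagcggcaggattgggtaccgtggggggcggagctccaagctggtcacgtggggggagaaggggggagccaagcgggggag
Klf9: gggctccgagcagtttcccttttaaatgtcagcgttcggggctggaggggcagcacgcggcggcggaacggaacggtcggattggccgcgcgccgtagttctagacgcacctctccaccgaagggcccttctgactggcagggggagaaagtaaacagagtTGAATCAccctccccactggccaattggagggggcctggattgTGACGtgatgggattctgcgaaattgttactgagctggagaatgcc
Klf11: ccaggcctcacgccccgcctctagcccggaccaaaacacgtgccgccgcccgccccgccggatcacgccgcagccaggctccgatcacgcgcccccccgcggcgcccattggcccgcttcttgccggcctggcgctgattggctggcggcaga
The MEF2 box, bound by the factors through which the kinase ERK5 is known to induce Klf2, occurred in the Klf2 window alone among the 8, at -118 to -109, and in 3.19% of 32851 RefSeq windows. TGANTCA occurred in the Klf9 window alone, at -89 to -83 (7.81% of all windows), where it overlaps a CACCC box at -84 to -80. TGACG occurred in 5 of the 8 windows (Klf2, Klf3, Klf4, Klf9, Klf13), against 20.8% of all windows. CACCC occurred in 5 of the 8 (Klf2, Klf3, Klf7, Klf9, Klf13), against 57.5%. No window of the 8 held the whole cyclic AMP element (1.79% of all windows), the CArG box (1.63%) or the NF-kB site (8.46%). A match of letters is a description of the window and no evidence of binding. The windows were rich in G and C, with a median of 70.7% and a range of 58.3% to 77.7%, against a median of 52.7% for all windows.

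Per gene length, Klf6 was the most abundant member in every group. In cHet controls its mean RPKM was 97.6 ± 3.02 (SD, n = 3), followed by Klf13 at 28.9 ± 1.92, Klf2 at 23.7 ± 3.43, Klf10 at 18.6 ± 3.52, Klf3 at 15.0 ± 0.869, Klf7 at 9.79 ± 0.627, Klf9 at 8.17 ± 0.615, Klf11 at 3.63 ± 0.363 and Klf4 at 2.14 ± 0.571. Among neighbours in that order, the ranges of Klf13 and Klf2 and of Klf2 and Klf10 overlapped over the 3 libraries. The summed RPKM of the 9 genes was 207 ± 2.44 in cHet controls, 330 ± 19.3 in cHet Pg, 176 ± 3.80 in cKO controls and 331 ± 10.3 in cKO Pg libraries. Klf6 made up 47.0% ± 1.03 and 48.1% ± 1.53 of the sum in the controls of cHet and cKO, and 61.0% ± 1.90 and 63.3% ± 1.56 under Pg. The sum was lower in cKO than in cHet controls and near the same level in both Pg groups.

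**Figure D1:**
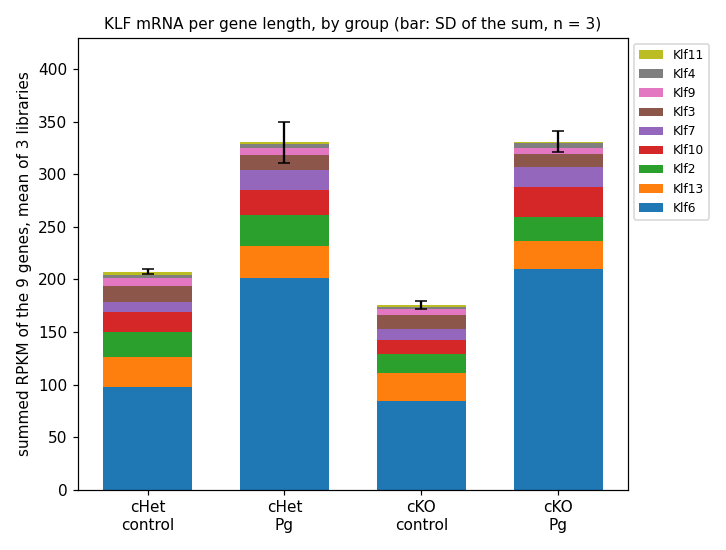
Summed RPKM (CPM per kilobase) of the 9 KLF genes, mean of 3 libraries in each of the 4 groups, stacked by gene; the bar on top is the SD of the sum. Klf6, at the base of each stack, rises from 97.6 to 202 RPKM in cHet and from 84.8 to 209.6 RPKM in cKO cells, and makes most of the growth of the sum.

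With Pg, 4 of the 9 genes rose and 1 fell in cHet cells, where 36.1% of all tested genes were called, 18% higher and 18% lower. In cKO cells 5 rose and 1 fell, where 34% of all genes were called, 16.9% higher and 17.1% lower. Klf4, Klf6 and Klf7 rose 1.84- to 2.47-fold in both genotypes, Klf2 rose 1.26- and 1.25-fold, Klf11 fell, and Klf10 rose past the threshold in cKO cells. The median log2 fold change of the 9 was 0.33 in each genotype, against -0.01 and 0.00 over all tested genes. The test was the robust quasi-likelihood F test of edgeR with Benjamini-Hochberg adjustment over 13800 genes, and every adjusted p below is from it unless another tool is named. Log2 changes are relative to TMM scaling. Scaling by library size alone lowers the Pg changes of all genes by a median of 0.24, and the share of called genes that are higher then drops from 50.0% to 19.1% in cHet and from 49.7% to 18.7% in cKO.

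**Figure D2:**
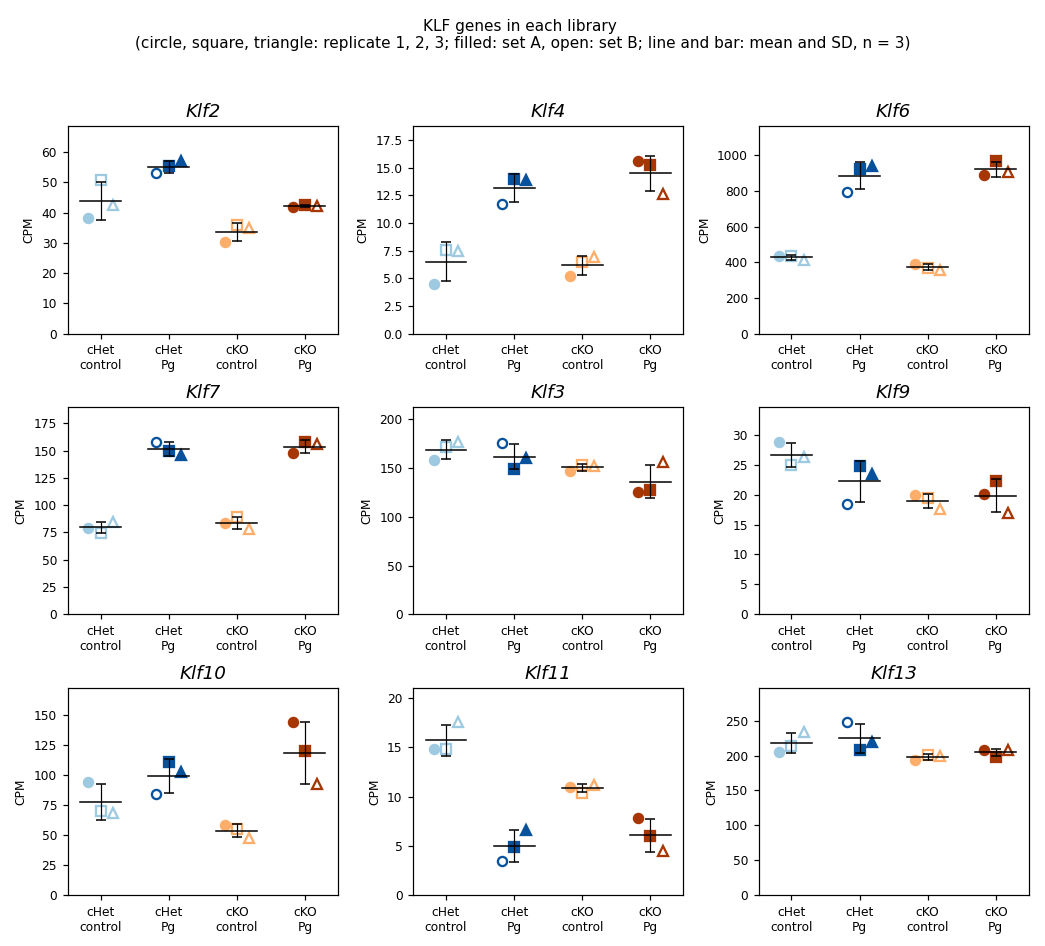
CPM of each KLF gene (y axis, from 0) in the 12 libraries by group (x axis); point shape is the replicate number, filled points are set A and open points set B, and line and bar are mean and SD of 3 libraries. Klf4, Klf6 and Klf7 show no overlap between Pg and control in either genotype, and Klf2 lies lower in the cKO than in the cHet libraries of the same treatment.

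Klf6 (chr13:5861482-5870394, plus strand, mm10), a broadly expressed activator induced in many cells by injury and growth factors, stood at 434, 438 and 413 CPM in cHet control libraries 1, 2 and 3 and at 796, 924 and 938 CPM in cHet Pg libraries. The cKO controls gave 392, 366 and 359 CPM and the cKO Pg libraries 890, 967 and 904 CPM. Every Pg library was above every control library. The log2 fold change was 1.05 ± 0.07 (SE) in cHet (adjusted p = 3.9e-09) and 1.31 ± 0.07 in cKO (adjusted p = 2.1e-10), with n = 3 per group. Within set A the change was 1.10 in cHet and 1.24 in cKO, and within set B 0.90 and 1.32. In order of level, the Pg groups of cKO and cHet overlapped (adjusted p = 0.823), and the cHet controls lay above the cKO controls without overlap, a difference of -0.20 ± 0.07 that was not called (adjusted p = 0.107) and was called with the set term (-0.20, adjusted p = 0.00578).

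Klf7 (chr1:64029447-64122282, minus strand), best known from neuronal and adipocyte differentiation, stood at 79.4, 74.6 and 84.8 CPM in cHet controls and at 158, 150 and 146 CPM in cHet Pg libraries. Its cKO values were 84.0, 89.2 and 78.1 CPM without Pg and 147, 158 and 156 CPM with it. All 6 Pg libraries lay above all 6 controls, and within each treatment the genotypes overlapped. Its response to Pg was a log2 fold change of 0.93 ± 0.07 in cHet (adjusted p = 1.3e-08) and 0.88 ± 0.07 in cKO (adjusted p = 2.4e-08). Within the sets it ranged from 0.86 to 0.99. Klf7 has the longest gene of the 9 by span, 92.8 kb, against 2.62 kb for Klf2 and a median of 19.2 kb over the tested genes.

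Klf4 (chr4:55527143-55532466, minus strand), the factor of monocyte differentiation whose promoter is printed above, was the least abundant member per length in controls. It stood at 4.51, 7.57 and 7.47 CPM in cHet controls and at 11.7, 13.9 and 13.9 CPM in cHet Pg libraries. In cKO cells it stood at 5.24, 6.48 and 6.89 CPM in controls and at 15.6, 15.2 and 12.7 CPM under Pg. The Pg and control libraries did not overlap in either genotype, while cHet and cKO overlapped in both treatments. The log2 fold change was 1.02 ± 0.18 in cHet (adjusted p = 0.000212) and 1.22 ± 0.18 in cKO (adjusted p = 3.7e-05). The change was 1.60 and 1.53 within set A and 0.63 and 0.91 within set B, in cHet and cKO in that order. Each genotype has 1 control library in set A and 1 Pg library in set B, and these values carry no error. With the set term the change was 1.05 ± 0.17 and 1.25 ± 0.17, near the planned fit.

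Klf2 (chr8:72319033-72321656, plus strand), the vascular and lymphocyte quiescence factor, stood at 38.2, 50.7 and 42.5 CPM in cHet controls and at 53.1, 55.3 and 57.1 CPM in cHet Pg libraries. The cKO controls gave 30.2, 35.9 and 34.8 CPM and the cKO Pg libraries 41.8, 42.4 and 42.2 CPM. Within each genotype the Pg libraries lay above the controls without overlap. Its response to Pg was a log2 fold change of 0.33 ± 0.09 in cHet (adjusted p = 0.00868) and 0.33 ± 0.09 in cKO (adjusted p = 0.012), and within the sets it was 0.19 to 0.56. Scaling by library size alone left 0.09 and 0.08, and neither was called. Without cKO control 1 the call in cKO was lost (0.25, adjusted p = 0.0594).

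Klf11 (chr12:24651274-24662789, plus strand), a TGF-beta-inducible repressor that recruits the Sin3A corepressor, was the only member called lower. It stood at 14.9, 14.8 and 17.6 CPM in cHet controls and at 3.44, 4.86 and 6.63 CPM in cHet Pg libraries. Its cKO values were 11.0, 10.4 and 11.2 CPM without Pg and 7.80, 5.98 and 4.47 CPM with it. Every Pg library lay below every control library. The log2 fold change was -1.65 ± 0.20 in cHet (adjusted p = 7.7e-06) and -0.84 ± 0.20 in cKO (adjusted p = 0.00391). Within set A the change was -1.37 in cHet and -0.68 in cKO, and within set B -2.19 and -1.25. In order of level, cHet controls came first, cKO controls next, and the Pg groups of cKO and cHet overlapped.

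Klf10 (chr15:38291463-38300706, minus strand), also TGF-beta-inducible and the closest relative of Klf11, stood at 94.6, 69.7 and 68.5 CPM in cHet controls and at 84.0, 111 and 103 CPM in cHet Pg libraries. In cKO cells it stood at 58.4, 55.0 and 47.7 CPM in controls and at 144, 120 and 92.4 CPM under Pg. Pg and control libraries overlapped in cHet, where control 1 lay above Pg 1, and did not overlap in cKO. Its response to Pg was a log2 fold change of 0.36 ± 0.18 in cHet (adjusted p = 0.167) and 1.14 ± 0.19 in cKO (adjusted p = 0.000954). In each of the 4 groups the set A libraries lay above the set B libraries. Within set A the change was 0.18 in cHet and 1.17 in cKO, and within set B 0.28 and 0.85. With the set term the cHet change was called at a smaller size (0.23 ± 0.08, adjusted p = 0.0152), and the cKO change was 1.01 ± 0.08.

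Klf9, Klf3 and Klf13 did not change with Pg past the threshold in either genotype. Klf9 (chr19:23141226-23166911, plus strand), known as a target of the glucocorticoid and thyroid hormone receptors, stood at 28.8, 24.9 and 26.3 CPM in cHet controls and at 18.3, 24.8 and 23.4 CPM in cHet Pg libraries. The cKO controls gave 19.9, 19.4 and 17.6 CPM and the cKO Pg libraries 20.2, 22.3 and 16.9 CPM. In cHet the highest Pg library came just under the lowest control, and in cKO the groups overlapped. The log2 fold change was -0.26 ± 0.12 in cHet (95% interval -0.52 to -0.01, adjusted p = 0.0963) and 0.06 ± 0.12 in cKO (adjusted p = 0.744). Without the filter on low counts the cHet change was called (-0.29, adjusted p = 0.0401). With the set term it was called too (-0.35 ± 0.09, adjusted p = 0.00262), and the cKO value turned to -0.02.

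Klf3 (chr5:64803388-64832901, plus strand), a repressor that recruits the CtBP corepressors, stood at 158, 171 and 177 CPM in cHet controls and at 175, 149 and 160 CPM in cHet Pg libraries. Its cKO values were 146, 153 and 152 CPM without Pg and 125, 127 and 156 CPM with it. Groups overlapped between Pg and control in both genotypes, and cKO Pg 3 stood above the other cKO Pg libraries. The log2 change was -0.06 ± 0.08 in cHet (adjusted p = 0.599) and -0.15 ± 0.08 in cKO (adjusted p = 0.19), and the latter was called without cKO Pg 3 (-0.26, adjusted p = 0.0158). Reads of the overlapping C230096K16Rik on the same strand and of Gm20033 on the other came to at most 2.92% and 1.73% of its count. The overlapping genes of other members stayed under 1% of the member's count.

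Klf13 (chr7:63886351-63938915, minus strand), a Sin3A-recruiting factor studied in T cells, had the steadiest level. It stood at 206, 214 and 234 CPM in cHet controls and at 248, 207 and 219 CPM in cHet Pg libraries. In cKO cells it stood at 193, 200 and 200 CPM in controls and at 207, 198 and 207 CPM under Pg. The ranges of Pg and control overlapped in both genotypes. Its log2 change was 0.05 ± 0.07 in each genotype, with 95% intervals of -0.10 to 0.19, and its sign depends on the scaling: with library size alone it was -0.20 in both and called lower (adjusted p = 0.0251 and 0.028). That scaling also called Klf3 lower in both genotypes (-0.31 and -0.39) and Klf9 in cHet (-0.51), and gave Klf9 in cKO as -0.18.

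**Figure D3:**
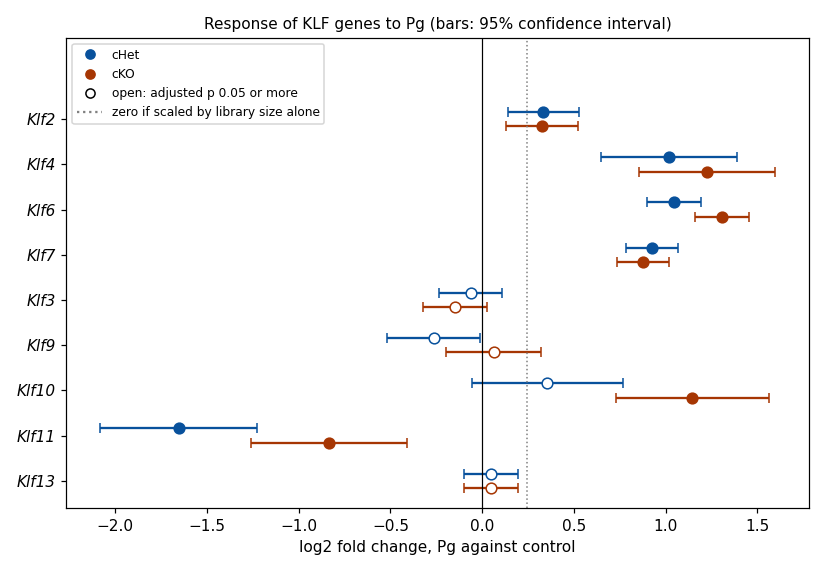
Log2 fold change of each KLF gene, Pg against control, in cHet (blue) and cKO (brown), with 95% confidence intervals from 3 libraries per group; open points have an adjusted p of 0.05 or more, and the dotted line is where zero would lie with scaling by library size alone. Klf4, Klf6 and Klf7 lie right of both lines in both genotypes, Klf11 left of them, and Klf2 at 0.33 lies near the dotted line.

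Between genotypes in controls, Klf2 and Klf9 were lower in cKO cells and the other 7 were not called, where 5.15% of all genes were called, 2.13% higher and 3.02% lower. Klf2 levels of 38.2 to 50.7 CPM in cHet and 30.2 to 35.9 CPM in cKO controls did not overlap, a log2 difference of -0.38 ± 0.09 (adjusted p = 0.0243). Klf9 levels of 24.9 to 28.8 CPM and 17.6 to 19.9 CPM did not overlap, a difference of -0.49 ± 0.12 (adjusted p = 0.023). Of the 9 differences 8 were below 0, with a median of -0.20, against 49.4% of all tested genes below 0 and a median of 0.00. The largest of those not called were Klf10 and Klf11, each at -0.53 ± 0.19 (adjusted p = 0.158 and 0.119). Both had cHet controls above cKO controls without overlap, as did Klf3 (-0.16), Klf6 (-0.20) and Klf13 (-0.14), also not called. How many of all tested genes lack overlap was not counted. The DESeq2 Wald test called Klf10 (adjusted p = 0.0302). The edgeR test called Klf11 without the filter on low counts (adjusted p = 0.0106) and when only the control groups were fitted (0.0211), and Klf6 without the filter (0.0462).

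The genotype calls in controls rest on few libraries. Klf2 lost its call without cHet control 2 (-0.26), cHet control 3, cKO control 1 or cKO control 3, and Klf9 lost it without cHet control 1, cHet control 3, cKO control 2 or cKO control 3. Klf2 also lost it when only the control groups were fitted (adjusted p = 0.0744). Within the sets the values were -0.34 and -0.39 for Klf2 and -0.53 and -0.47 for Klf9 in sets A and B. With the set term 6 of the 9 were called lower in cKO controls, where the calls over all genes also grew, from 294 to 768 higher and from 417 to 954 lower. These were Klf2 (adjusted p = 0.00131), Klf9 (0.000272), Klf10 (-0.52, 4.2e-05), Klf6, Klf11 (-0.53, 0.0189) and Klf3 (-0.16, 0.045).

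Under Pg, Klf2 alone was called, where 1.85% of all genes were called, 0.652% higher and 1.2% lower. Its levels of 53.1 to 57.1 CPM in cHet and 41.8 to 42.4 CPM in cKO Pg libraries did not overlap, a log2 difference of -0.39 ± 0.09 (adjusted p = 0.0367). The adjusted p rose above the threshold when any of the 6 Pg libraries, cHet control 3 or cKO control 3 was left out, with the difference between -0.41 and -0.36, and it was 0.00141 with the set term. Scaling by library size alone also ended the call (-0.38, adjusted p = 0.0579). Of the other 8, Klf3 had the smallest p (-0.25 ± 0.08, adjusted p = 0.179). It was called lower without cKO Pg 3 (-0.36, adjusted p = 0.018) and without the filter on low counts (-0.24, adjusted p = 0.0404). Klf10 (0.26 ± 0.18) and Klf11 (0.29 ± 0.22) were above 0. With the set term Klf3 was also called lower (-0.25, adjusted p = 0.00334) and Klf10 higher (0.25, adjusted p = 0.0405) in cKO cells. The median over the 9 was 0.02, against 0.00 over all genes.

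**Figure D4:**
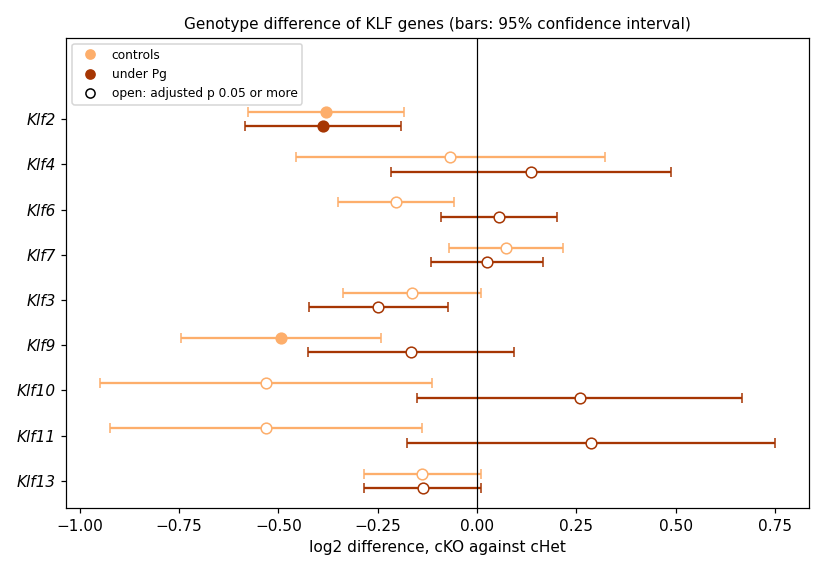
Log2 difference of each KLF gene, cKO against cHet, in controls (light) and under Pg (dark), with 95% confidence intervals from 3 libraries per group; open points have an adjusted p of 0.05 or more. Klf2 lies near -0.38 in both treatments, Klf9 is called in controls at -0.49, and Klf10 and Klf11 lie at -0.53 in controls and above 0 under Pg.

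Markers of other cells moved with genotype and with Pg too. The summed level of 8 stromal markers was 29.4 to 30.6 CPM in cHet controls, 29.2 to 37.2 CPM in cHet Pg, 2.12 to 3.03 CPM in cKO controls and 3.27 to 5.23 CPM in cKO Pg libraries, and Lum among them was at 0 in all 12. Klf2 is strongly expressed in endothelium, so those markers matter for it: the 7 endothelial markers summed to 105 to 118 and 114 to 119 CPM in the cHet controls and Pg libraries and to 95.0 to 97.0 and 97.0 to 116 CPM in cKO. Most of that sum was Vwf, at 65.5 to 95.0 CPM. Over all libraries Pecam1 lay at 9.55 to 28.3 CPM and Kdr at 4.13 to 11.2 CPM. Cdh5 lay at 1.11 to 4.67 CPM and Esam at 0.714 to 3.59 CPM. Tek was at 0.563 CPM or less and Emcn at 0.986 CPM or less in every library. The 6 T and NK cell markers summed to 132 to 211 CPM in cHet controls, 289 to 339 CPM in cHet Pg, 161 to 218 CPM in cKO controls and 278 to 322 CPM in cKO Pg libraries, nearly all of it Il7r, with Cd3e at 0.422 CPM or less. The 5 dendritic cell markers summed to 3.44 to 5.42 and 8.71 to 10.8 CPM in the controls and Pg libraries of cHet and to 4.26 to 4.70 and 9.29 to 11.8 CPM in those of cKO. Both sums were higher with Pg in both genotypes without overlap. The 7 erythroid markers summed to 25.9 to 34.4 and 13.8 to 23.6 CPM in the controls and Pg libraries of cHet and to 13.5 to 21.2 and 5.76 to 15.0 CPM in those of cKO. The 5 B cell markers summed to 8.93 to 20.1 CPM and the 8 neutrophil markers to 577 to 989 CPM, with overlap between all groups of the same genotype. The part of these markers in the genotype differences and in the Pg responses was not tested.

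The difference in Pg response between the genotypes was called for none of the 9 genes by edgeR on all 12 libraries, where 0.717% of all genes were called, and 3 had an unadjusted p under 0.05. These were Klf11, whose fall was smaller in cKO by 0.82 ± 0.29 on the log2 scale (95% interval 0.21 to 1.42, adjusted p = 0.217), Klf10, whose rise was larger by 0.79 ± 0.26 (0.21 to 1.37, adjusted p = 0.231), and Klf6, whose rise was larger by 0.26 ± 0.10 (0.05 to 0.46, adjusted p = 0.251). All 3 carry the lower control level in cKO described above, which enters this difference by construction. The DESeq2 Wald test called Klf10 (0.79, adjusted p = 0.0331), and the edgeR test without the filter on low counts called Klf11 (0.82, adjusted p = 0.0231).

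With the set term the sizes stayed near the same and all 3 were called: Klf10 at 0.77 ± 0.11 (adjusted p = 5.8e-05), Klf6 at 0.26 ± 0.07 (adjusted p = 0.025) and Klf11 at 0.82 ± 0.24 (adjusted p = 0.0467). The calls over all genes also grew, from 63 to 425 higher and from 36 to 360 lower. Within sets A and B the difference was 0.99 and 0.57 for Klf10, 0.15 and 0.41 for Klf6, and 0.69 and 0.94 for Klf11, each from 3 libraries per genotype and with no error of its own. For Klf10 the standard error fell from 0.26 to 0.11 with the term. The term was drawn from the spread of these same libraries, so smaller errors and more calls follow in part by construction. Klf2, Klf7 and Klf13 gave differences of -0.01, -0.05 and 0.00 in the planned fit, with 95% intervals of -0.28 to 0.27, -0.25 to 0.15 and -0.21 to 0.21.

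**Figure D5:**
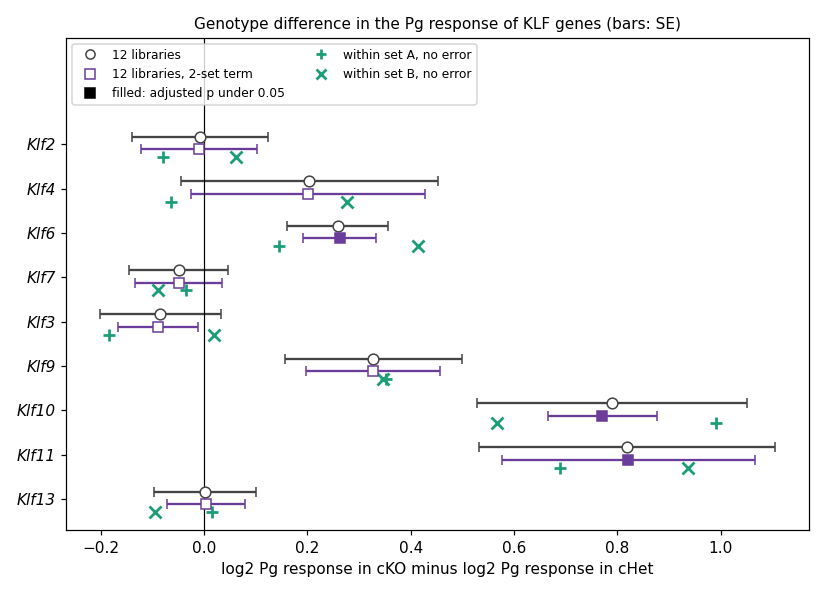
Difference between genotypes in the log2 Pg response, cKO minus cHet, for each KLF gene (x axis), from all 12 libraries (circles), with a term for the 2 sets (squares), both with SE, and within set A (plus signs) and set B (crosses) with no error; filled points have an adjusted p under 0.05. Klf10 and Klf11 lie near 0.8 by both fits, and the filled squares are Klf6, Klf10 and Klf11. The set term was drawn from these same libraries, so the errors of the squares are likely too small.

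To compare the members' patterns over the 12 libraries, a distance was taken between each pair. After centring each gene on its mean log2 CPM, the root mean square difference was smallest between Klf3 and Klf13 (0.11), then between Klf6 and Klf7 (0.20), and largest between Klf6 and Klf11 (1.25). Among 11004 expressed genes, the genes most like each member, up to 2 for each, were Icam1 (0.11) and Ecm1 (0.13) for Klf2, Nlrp3 (0.19) and Ets2 (0.20) for Klf4, Nfkbib (0.08) and Zfand5 (0.08) for Klf6, Nfat5 (0.06) for Klf7, and Jun (0.18) and Dbp (0.21) for Klf11. They were Slc2a8 (0.07) and Smad4 (0.08) for Klf3, Plekha2 (0.11) and Jade1 (0.11) for Klf9, Tbc1d31 (0.15) and Bbs10 (0.16) for Klf10, and Lpp (0.04) and Cenpx (0.05) for Klf13. Each member's own root mean square about its mean was 0.099 for Klf13, 0.15 for Klf3, 0.24 for Klf9, 0.27 for Klf2, 0.46 for Klf7, 0.47 for Klf10, 0.60 for Klf4 and Klf6 and 0.72 for Klf11. The distance between Klf3 and Klf13 is thus about as large as their own small spread. The distances describe likeness over libraries that share the treatment and the sets.

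Sequence after the stop codon was searched for AU-rich letters, a search added after the levels were seen. The letters ATTTA, read in the reference DNA, occur in many short-lived mRNAs. They were found 18 times for Klf7, 8 for Klf9, 7 for Klf6, 7 for Klf3, 4 for Klf10, 4 for Klf11, 3 for Klf13, 1 for Klf2 and 1 for Klf4, with a median of 4 against 1 over 11431 tested coding genes. Per kilobase after the stop codon the median was 1.87 against 1.25. TATTTAT was found for 5 of the 9 (Klf2, Klf6, Klf7, Klf10, Klf11), against 28% of those genes. By count the genes that rose with Pg ranged from 1 for Klf4 to 18 for Klf7, over 982 and 6266 bases after the stop codon. Per kilobase Klf4 stood at 1.02 and Klf7 at 2.87, and the lowest member was Klf13 at 0.58. A link between these letters and the Pg changes was not tested.

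Of the other KLF genes, Klf5, an epithelial and smooth muscle activator, stood at 0.445, 0.932 and 1.31 CPM in cHet controls and 2.67, 1.69 and 2.61 CPM in cHet Pg libraries, a log2 rise of 1.39 ± 0.37 (adjusted p = 0.00693), and rose by 1.19 ± 0.37 in cKO (adjusted p = 0.0185). The cKO call was lost without cKO control 2 or 3 or cKO Pg 1 or 2 (adjusted p up to 0.0773). Klf16, at 11.2 CPM or more in every library, fell in cKO (-0.39 ± 0.11, adjusted p = 0.0126), a call lost without cKO Pg 2 (0.0654). Klf1, Klf12, Klf14, Klf15 and Klf17 had 0 to 6 counts in a library and were not tested. Of the 4 tested SP genes, relatives that bind the same boxes, Sp3 fell in both genotypes (-0.20 ± 0.06 and -0.28 ± 0.06, adjusted p = 0.0137 and 0.00126) and Sp4 rose in cKO (0.44 ± 0.13, adjusted p = 0.0128). The Sp3 call in cHet was lost without cHet Pg 1, and the Sp4 call without cKO control 3 or cKO Pg 1 and with scaling by library size alone.

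Of 10 corepressor and acetyltransferase genes through which KLF proteins act, 1 rose and 2 fell in cHet, and 2 rose and 2 fell in cKO, near the 36.1% and 34% of all tested genes that were called. Ep300, the acetyltransferase p300, lay at 154 to 168 CPM in cHet controls and 95.0 to 96.8 CPM in cHet Pg libraries and fell by 0.76 on the log2 scale (SE 0.07, adjusted p = 1.0e-07). In cKO it fell by 0.67 (SE 0.07, adjusted p = 4.8e-07). Sin3a, the partner of Klf10, Klf11, Klf9 and Klf13, fell by 0.44 and 0.38 (adjusted p = 0.000197 and 0.000788), and its paralog Sin3b rose by 0.20 ± 0.06 in cHet and 0.21 ± 0.06 in cKO (adjusted p = 0.0191 and 0.0146). The cHet call of Sin3b was lost without cHet control 2, cHet Pg 1 or cHet Pg 3 (adjusted p up to 0.0908) and without the filter on low counts, and its sign turns with library-size scaling. Of 6 ubiquitin ligases reported to target KLF proteins, 3 fell in cHet, and 3 fell and 1 rose in cKO (over all genes 18% and 17.1% were lower). Some of these calls were fragile. With 1 library left out, Smurf1 in cHet lost its call in 8 of 12 fits (adjusted p up to 0.244). Itch, the gene that rose in cKO, lost its call in 4 of 12 (up to 0.114), and its sign turned with scaling by library size alone. Fbxo32 fell by 1.83 in cHet (SE 0.45, adjusted p = 0.0105), and Fbxw7 by 0.37 and 0.48 (adjusted p = 0.0116 and 0.00204) in cHet and cKO, the former call lost without cHet Pg 1 (0.0591).

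The ERK5-MEF2 route, which carries growth factor and flow signals to Klf2 and Klf4, had 5 of its 10 genes higher and 2 lower in cHet, and 4 higher and none lower in cKO, where 36.1% and 34% of all genes were called in either direction. The 2 lower in cHet were Mapk7, which encodes ERK5 itself (-0.23 ± 0.07, adjusted p = 0.00965, named after its values were seen), and Hdac5 (-0.29 ± 0.06, adjusted p = 0.00147). Mef2c, a MEF2 factor, lay at 100 to 114 CPM in cHet controls and 125 to 133 CPM in cHet Pg libraries (0.28 ± 0.07, adjusted p = 0.00538), and at 81.9 to 90.7 and 128 to 149 CPM in cKO (0.67 ± 0.07, adjusted p = 1.7e-06). Scaling by library size alone ended its cHet call (adjusted p = 0.71). Map3k2, an upstream kinase, rose by 0.47 ± 0.07 and 0.59 ± 0.07 (adjusted p = 9.5e-05 and 8.5e-06). Between genotypes, 2 of the 10 were lower in cKO controls, where 3.02% of all genes were, and none was called under Pg. The 2 were Mef2c (-0.33 ± 0.07, adjusted p = 0.012) and the MEF2-binding deacetylase Hdac5 (-0.23 ± 0.06, adjusted p = 0.0408), both named after their values were seen.

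Of 12 tested genes of the TGF-beta-SMAD pathway, which induces Klf10 and Klf11, 2 rose and 3 fell in cHet, and 3 rose and 3 fell in cKO, beside the 36.1% and 34% called over all genes. Smad3, a signal transducer, rose by 0.44 ± 0.09 and 0.71 ± 0.09 (adjusted p = 0.00131 and 1.5e-05), and the cHet call was lost with scaling by library size alone (0.0768). The inhibitor Smad6 fell in cHet from 51.9 to 59.8 CPM in controls to 32.9 to 37.9 CPM under Pg (-0.63 ± 0.08, adjusted p = 1.5e-05), and the corepressor Ski fell by 0.62 and 0.48 (adjusted p = 1.0e-06 and 1.8e-05). Between genotypes, none of the 12 was called in controls and 1 was higher in cKO under Pg, where 0.652% of all genes were. Of 9 genes for the glucocorticoid receptor and its targets, a group to which Klf9 is tied, 3 rose and 1 fell in cHet and 4 rose and 1 fell in cKO (all genes 18% and 18%, then 16.9% and 17.1%). The receptor gene Nr3c1 rose by 0.73 ± 0.07 and 0.69 ± 0.07 (adjusted p = 3.6e-07 and 8.0e-07), and Mt1, a metallothionein also induced by metals and inflammation, by 1.55 ± 0.19 and 1.03 ± 0.19 (adjusted p = 0.000158 and 0.00222). By mean level Tsc22d3, Sgk1 and Fkbp5 were lower with Pg in both genotypes, not all of them called. Sgk1 went from 475 to 252 CPM in cHet and from 331 to 267 CPM in cKO, where libraries overlapped. Tsc22d3 lay at 22.8 to 24.3 CPM in cHet controls and 13.4 to 18.4 CPM under Pg. Mt2, Zbtb16 and Hsd11b1 were higher in both, and Per1 lower in cHet and higher in cKO. Apart from Mt2 and Per1, the genes after Mt1 were named after their values were seen.

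Of 12 tested genes reported as targets of KLF2 or KLF4, some induced and some repressed by them, 9 rose in cHet and 7 in cKO and none fell, where 18% and 16.9% of all tested genes rose. Their median log2 fold changes were 0.63 and 0.50, against -0.01 and 0.00 over all tested genes. Ccl2, a monocyte chemokine, lay at 92.4 to 103 CPM in cHet controls and 356 to 490 CPM in cHet Pg libraries (2.14 ± 0.16, adjusted p = 1.9e-06), and at 43.5 to 59.6 and 379 to 542 CPM in cKO (3.15 ± 0.17, adjusted p = 1.3e-07). The cell cycle inhibitor Cdkn1a rose by 0.62 ± 0.07 and 0.71 ± 0.07 (adjusted p = 1.2e-06 and 2.7e-07). Between genotypes, 2 of the 12 were lower in cKO controls and 2 in cKO under Pg, with none higher. Over all genes, 3.02% and 1.2% were lower. Among them, Ccl2 was lower in cKO controls (-0.92 ± 0.16, adjusted p = 0.00893) and Arg1 was lower in cKO under Pg (-1.54 ± 0.33, adjusted p = 0.0267), both named after their values were seen. Arg1 was low, at 6.32 to 8.59 CPM in cHet Pg and 2.28 to 2.82 CPM in cKO Pg libraries.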

How the data were processed

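Raw read counts per gene, in 1 table for 12 libraries, are the values the authors deposited. The tools named in the submitters' processing notes are fastp, HISAT2 2.0.5 for mm10 and the read counter featureCounts 1.5.0-p3. Whether counting used strand is not given in the sources used here. Counts were filtered (filterByExpr), scaled by TMM and tested in edgeR 4.0.16 (R 4.3.3; DESeq2 1.42.0 as an alternative), with 1 coefficient per group and adjusted p under 0.05 as the threshold. The procedure was tested on simulated counts that had no pattern shared between libraries, so that test does not cover the sets A and B. The KLF genes, lists and tests were chosen with earlier results of these data known. Genes marked as named after their values were seen may stand outside the naming rule that follows. Named genes are the 9 members, Itga9, up to 3 called genes with the smallest p from each list in each Pg comparison (not all are printed, and some genes are not reported here) and the 2 genes nearest in pattern to each member, from genes of mean log2 CPM of at least 1 (prior count 2). Alternatives were other scaling, no filter, DESeq2, a replicate block, only the groups compared, leaving out each library and, added after the data were seen, the set term and 8 libraries. Pairs of replicates differed beyond sampling noise (chi-square per gene 2.59 to 17.2). Groups follow the labels, and no library was left out of the planned fit.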

Additional observations from a re-analysis of the deposited data

How the results depend on the processing

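Scaling by library size alone called 4 KLF genes lower with Pg in cHet (all genes 1288 higher, 5438 lower) and 3 lower in cKO (1229 and 5343), turned Klf13 to -0.20 in both, Klf9 in cKO to -0.18, Sin3b in cHet to -0.048 and Itch in cKO to -0.013, and called 0 members lower in cKO under Pg. With no filter on low counts, 2 members were lower with Pg in cHet, 4 in cKO controls (all genes 474 higher, 627 lower) and 2 in cKO under Pg (181 and 326), and 1 had a called genotype difference in Pg response (210 and 179); the cause was not tested. DESeq2 called 1 member for that difference (all genes 144 higher, 118 lower) and gave Klf13 there as -0.0016. RLE size factors and the replicate block changed no call of a KLF gene. Same-numbered libraries of different groups showed no shared deviation as a whole (median r -0.14, range -0.55 to 0.67). Same-numbered controls of cHet and cKO did correlate positively (0.67, 0.18 and 0.19 for numbers 1, 2 and 3). The sets enter these correlations, so whether the numbers pair the samples cannot be decided from them. With the block all genes gave 2385 calls higher and 2338 lower with Pg in cHet.

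With the 2-set term, added after the data were seen, 2 members were lower with Pg in cHet, 6 lower in cKO controls (all genes 768 and 954), 1 higher and 2 lower in cKO under Pg (325 and 521) and 3 differed in Pg response (425 and 360), and Klf9 with Pg in cKO was -0.023. Another alternative added then left out the 4 libraries farthest from the rest of their group, cHet control 1, cHet Pg 1, cKO control 1 and cKO Pg 3. This leaves only set B controls and set A Pg libraries, so that in it Pg and the sets cannot be told apart. It called 2 members lower with Pg in each of cHet and cKO, gave Klf13 in cHet as -0.073, called 6 lower in cKO controls (all genes 635 higher, 787 lower), 1 higher and 2 lower under Pg (299 and 472) and 3 for the difference in response (461 and 407). Choosing libraries for closeness narrows the spread by construction.

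Leaving out 1 library at a time gave these ranges. With Pg in cHet, 4 to 4 members were higher and 1 to 1 lower (all genes 2098 to 2548 and 1985 to 2560); in cKO, 4 to 5 and 1 to 2 (1914 to 2413 and 1924 to 2414). Between genotypes 0 to 0 members were higher and 0 to 2 lower in controls (127 to 349 and 190 to 495), and 0 to 0 and 0 to 1 under Pg (51 to 101 and 98 to 206). For the difference in response 0 to 0 members were called in either direction (29 to 118 and 13 to 89). Small values that changed sign were Klf13 (-0.031 to 0.10) with Pg in cHet, Klf9 (-0.032 to 0.17) with Pg in cKO, Klf4 (-0.27 to 0.058) between controls, Klf6 (-0.016 to 0.10) and Klf7 (-0.0015 to 0.058) under Pg, and Klf2 (-0.13 to 0.074) and Klf13 (-0.052 to 0.078) in the difference in response. With 3 libraries per group, the 95% intervals of the Pg changes of Klf3 and Klf13 include 0 in both genotypes; that of Klf9 in cHet does not.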
